A study of Homo sapiens with 6 samples.

Results

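The Wnt pathway genes followed here are 41 ligands, receptors and signal transducers, listed by name with earlier results of these data known. Of these, 37 were measured by at least 1 probe set tied to a single gene. These 37 genes had 97 such probe sets, out of 54613 probe sets and 19775 genes on the array. WNT3, PORCN, FZD8 and TCF7 had none and were not analysed here. The cells were MDA-MB-231, a human breast cancer line in long use, which lacks oestrogen receptor, progesterone receptor and HER2 amplification. In the tested cultures SDC1, the gene of the cell-surface proteoglycan syndecan-1, was targeted with a small interfering RNA (siRNA), and the other cultures received a negative control siRNA. Each group had 3 independent replicates, 1 Affymetrix array per replicate. Untransfected cells and the siRNA sequences, dose and time were not analysed here.

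Wnt proteins are secreted, lipid-modified signals that bind Frizzled receptors together with the co-receptors LRP5 and LRP6. The scaffold Dishevelled (DVL) relays the signal to a complex of AXIN, APC and the kinases GSK3 and casein kinase 1, which otherwise marks beta-catenin for destruction, and spared beta-catenin acts with TCF/LEF transcription factors. Other branches, through ROR and RYK receptors, steer cell polarity and movement without beta-catenin. Heparan sulfate chains such as those on syndecan-1 bind Wnt proteins, and in mice loss of Sdc1 reduces mammary tumours driven by Wnt1.

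Values are on the log2 scale and centred, for each probe set, on the median of its 6 arrays, so 0 is that median and changes, not expression levels, can be read. The pair of arrays nearest the median lie at equal distances above and below 0 by construction. A log2 fold change is the SDC1 siRNA mean minus the control siRNA mean, given with its limma standard error (SE), n = 3 arrays per group, and a p adjusted by Benjamini-Hochberg over all features tested. A gene value is the mean of its probe sets in its brightest class, and the classes are bright (log2 level 8 to 16), middle (4 to 8) and dim (2 to 4), as read from the numeric step of the values. This placement is coarse. It uses the arrays at or above the median, which all come from the same group wherever the groups do not overlap. A probe set can thus be bright only through the group where it is higher. Control arrays did this for 225745_at of LRP6 and 201908_at of DVL3, and SDC1 siRNA arrays for 222696_at of AXIN2. Gene values and the shares called by class depend on this rule. With all 6 arrays used in place of those at or above the median, 15 of the 40 member probe sets placed as bright and 2 of the 44 placed as middle fell to a lower class. These are bulk samples, in which fewer cells of a kind and less RNA per cell cannot be told apart.

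SDC1 itself was at -1.14, -1.16 and -1.43 on the SDC1 siRNA arrays, against 1.13, 1.32 and 1.09 on the control siRNA arrays, a log2 difference of -2.42 with SE 0.097 and limma adjusted p of 2.06e-06. Over the whole array 5568 genes (28.2%) passed the test at an adjusted p of 0.05, 13.0% higher and 15.1% lower. The cell label could not be checked by level. All 5 markers known in the line were placed as bright, but so were 4 of 5 luminal markers and 2 of 5 markers of other cell types. Poly-A spike-in controls averaged 0.37 to 0.67 on 3 arrays and -0.45 to -0.40 on the other arrays. By the sign of this mean the arrays were sorted into 2 sets, called spike-in batches here, that each hold both groups. No sample label names a batch. An even split about the median is largely built in by the centring, and whether the sets were handled apart was not tested.

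The Wnt genes did not move together. Of the 37 measured members, 5 rose (RYK, ZNRF3, TCF7L2, DVL2 and AXIN2) and 6 fell (LRP6, DVL3, DKK3, FZD3, TCF7L1 and FZD6), while 26 did not pass. The count of 11 lies near the 28.2% called among all genes, and so says nothing particular to the pathway. The members' median log2 fold change was 0.05, and that of all genes was 0.00. The groups had no overlapping arrays in 15 members, against 41.8% of all genes. Among 23 members placed as bright 8 passed, where 41.4% of all bright genes did. Of 13 placed as middle 3 passed, where 19.9% of all middle genes did, and ROR2, the only dim member, did not pass (4.98% of all dim genes did). In the fit over single probe sets 11 of the members' 97 were higher and 8 lower, against a background of 9.70% higher and 10.1% lower (19.8% in all). The groups did not overlap on 35 of the 97, against 35.7% of all probe sets.

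**Figure D1:**
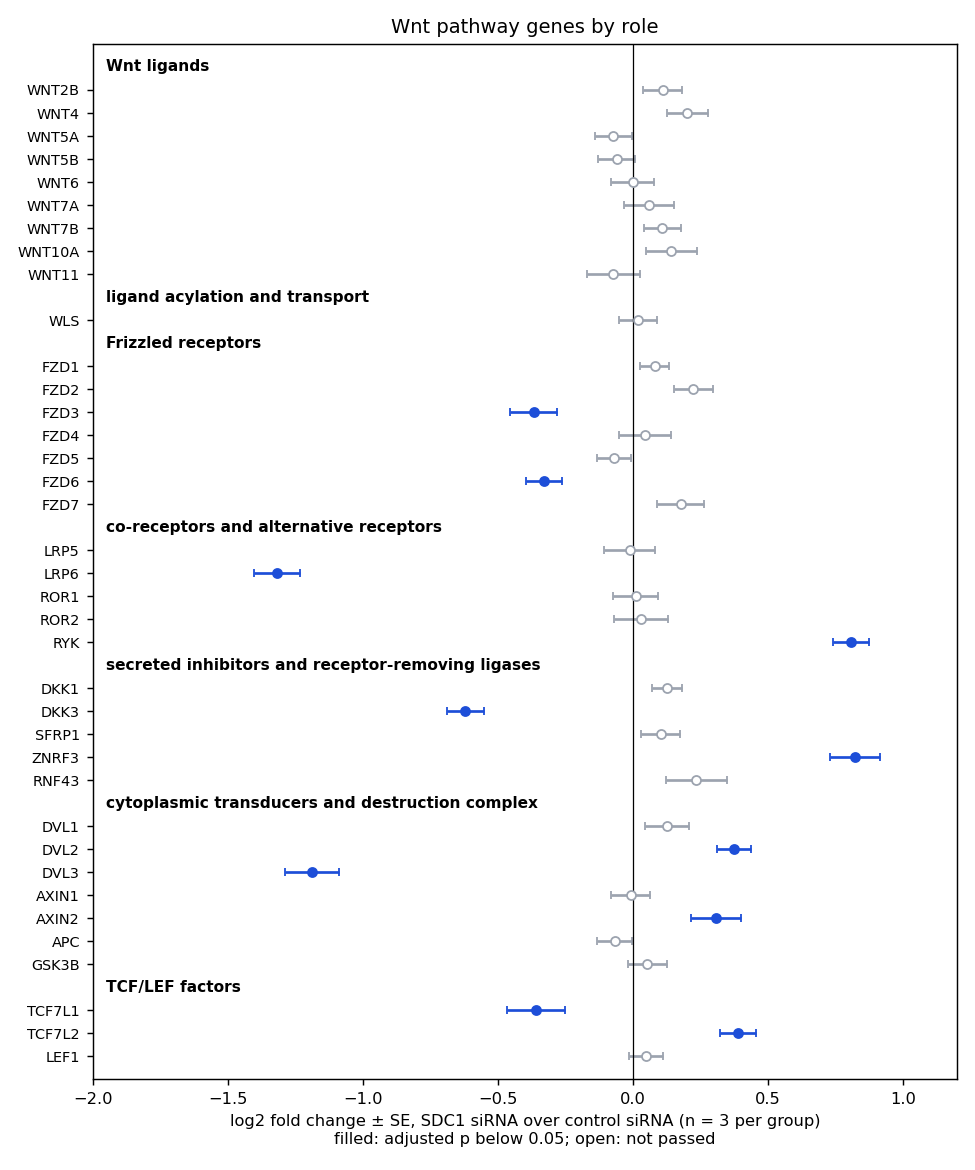
Log2 fold change (x axis, SDC1 siRNA over control siRNA, n = 3 arrays per group) of the 37 measured Wnt pathway genes, grouped by role down the page. Points are limma estimates, bars are 1 SE, filled points passed an adjusted p of 0.05. LRP6 and DVL3 lie below -1, RYK and ZNRF3 at about 0.8, and no ligand passed.

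None of the 9 measured Wnt ligands passed the test, where 28.2% of all genes did. These ligands were placed as middle or bright, classes in which 19.9% and 41.4% of all genes passed. Their log2 fold changes ran from -0.07 to 0.20, with SEs of 0.069 to 0.098 and adjusted p of 0.086 to 0.991. WNT5A and WNT5B, which mostly signal without beta-catenin, were at -0.07 (SE 0.069) and -0.06 (SE 0.069). The value nearest to the threshold was that of WNT4, a ligand active in mammary duct branching. WNT4 was at 0.08, 0.04 and 0.06 with SDC1 siRNA, against -0.27, -0.14 and 0.00 with control siRNA, for a difference of 0.20 (SE 0.076, adjusted p = 0.086). Its arrays did not overlap, and its 3 probe sets lay between 0.18 and 0.22. Without control siRNA replicate 3 WNT4 passed, at 0.27 (adjusted p = 0.0297). WNT2B, WNT7B and WNT10A were at 0.11, 0.11 and 0.14 on the log2 fold scale, and WNT7A, WNT6 and WNT11 at 0.06, 0.00 and -0.07. WLS, which carries Wnt proteins to the cell surface, was at 0.02 (SE 0.070, adjusted p = 0.887).

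Among the Frizzled receptors 2 of 7 measured members fell and none rose, where 15.1% of all genes were called lower and 13.0% higher. FZD6 was at -0.16, -0.22 and -0.10 in SDC1 siRNA cells, against 0.10, 0.17 and 0.25 in control siRNA cells. It fell by 0.33 log2 units (SE 0.067, adjusted p = 0.00636), to 79.6% of control, and the groups did not overlap. Within the spike-in batches FZD6 was at -0.29 and -0.30 and passed in neither (adjusted p = 0.108 and 0.154). FZD6 and FZD3 are the Frizzleds best known for planar cell polarity. FZD3 was at -0.08, -0.20 and -0.18 with SDC1 siRNA, against 0.38, 0.20 and 0.06 with control siRNA, and fell by 0.37 (SE 0.087, adjusted p = 0.0131). Its probe sets did not all point one way. The bright ones, 227499_at and 227524_at, were at -0.43 and -0.30 (adjusted p = 0.0396 and 0.0209), whereas 219683_at was at 0.26 (adjusted p = 0.0809) with groups that also did not overlap. With all FZD3 probe sets averaged, or with the class from all 6 arrays, the fold change was -0.16 (adjusted p = 0.129 and 0.132), so the call was lost. It was also lost within the second spike-in batch (-0.31, adjusted p = 0.165).

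The other Frizzleds did not pass as genes. FZD2 was the closest, at 0.09, 0.16 and 0.02 after SDC1 siRNA and -0.17, -0.02 and -0.21 after control siRNA, 0.22 apart (SE 0.073, adjusted p = 0.0506). Under 8 of its 18 alternatives FZD2 passed, with values up to 0.30 over all of them. FZD4 was at 0.04 on its bright probe set (SE 0.095, adjusted p = 0.786). Its middle-class probe set 218665_at was at -0.34, -0.11 and -0.15 in SDC1 siRNA cells, against 0.13, 0.12 and 0.11 in control siRNA cells, and fell by 0.32 (SE 0.082, adjusted p = 0.0251). That probe set missed the threshold without SDC1 siRNA replicate 1, or without any one control array. FZD7, FZD1 and FZD5 were at 0.18, 0.08 and -0.07.

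The co-receptors and alternative receptors held both a large fall and a large rise. LRP6, which pairs with Frizzled in beta-catenin signalling, was at -0.66, -0.56 and -0.79 in SDC1 siRNA cells, against 0.77, 0.56 and 0.61 in control siRNA cells. Every SDC1 siRNA array lay over 1 log2 unit below every control array on this bright probe set, 225745_at, and the fold change was -1.32 (SE 0.084, adjusted p = 1.52e-05), 40.1% of control. Within the spike-in batches LRP6 was at -1.39 and -1.37. LRP6 was the lowest of the 37 members. LRP5, its paralogue, was at -0.01 (SE 0.094, adjusted p = 0.944).

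RYK, a Wnt receptor related to receptor tyrosine kinases, rose. It was at 0.45, 0.31 and 0.46 with SDC1 siRNA, against -0.45, -0.41 and -0.33 with control siRNA, a rise of 0.81 log2 units (SE 0.068, adjusted p = 6.32e-05) or 1.75-fold. All 3 RYK probe sets passed, at 0.93 (202853_s_at), 0.72 (214172_x_at) and 0.68 (216976_s_at), and none of them had overlapping groups. The rise was 0.84 within the first spike-in batch and 0.83 within the second. ROR1 and ROR2, receptors for WNT5A, were at 0.01 (SE 0.084) and 0.03 (SE 0.099), and neither passed.

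**Figure D2:**
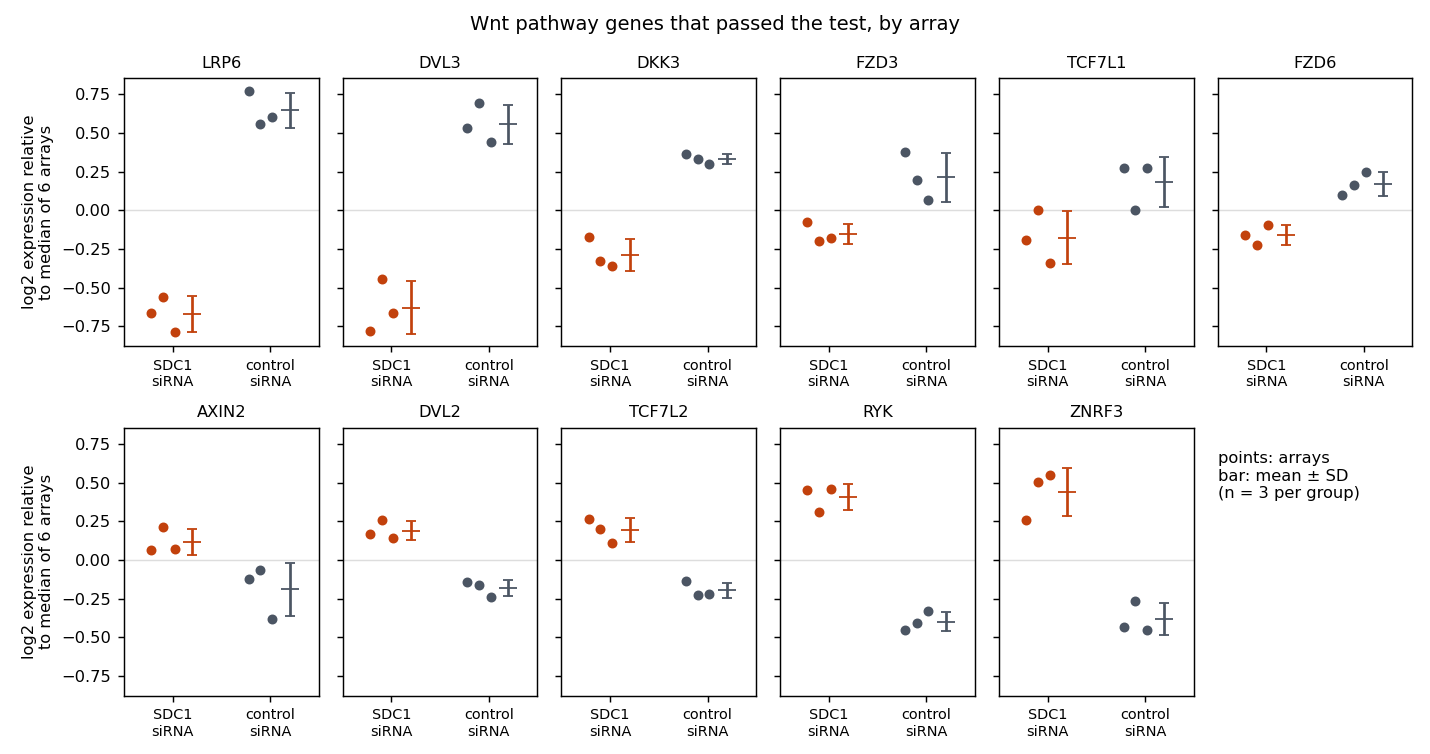
Log2 expression, centred on the 6-array median, (y axis) for the 11 Wnt genes that passed, with SDC1 siRNA arrays to the left of control siRNA arrays in each panel. Points are arrays and bars are mean ± SD (n = 3 per group). The groups are apart in 10 panels, and in TCF7L1 SDC1 siRNA replicate 2 reaches the lowest control array.

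The extracellular inhibitors and the ligases that remove Wnt receptors were divided. ZNRF3, a membrane ubiquitin ligase that takes Frizzled and LRP6 off the cell surface and is itself induced by Wnt, rose. ZNRF3 was at 0.26, 0.50 and 0.55 in SDC1 siRNA cells, against -0.43, -0.26 and -0.45 in control siRNA cells, a rise of 0.82 log2 units (SE 0.092, adjusted p = 0.000274) or 1.77-fold. It has 1 probe set, whose groups did not overlap, and passed in all 18 alternatives, at 0.76 to 0.91. RNF43, the related ligase, was at 0.23 (SE 0.11, adjusted p = 0.166), and passed (0.35, adjusted p = 0.0318) only without control siRNA replicate 2 among its alternatives.

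DKK3, a divergent member of the Dickkopf family, fell by 0.62 log2 units (SE 0.069, adjusted p = 0.000257), and by 0.62 and 0.68 within the spike-in batches. It was at -0.17, -0.33 and -0.36 with SDC1 siRNA and 0.36, 0.33 and 0.30 with control siRNA. DKK1, the Dickkopf that blocks LRP6, was at 0.03, 0.07 and 0.11 after SDC1 siRNA and -0.05, -0.03 and -0.08 after control siRNA when read on its single probe set, 204602_at. DKK1 groups did not overlap, but the difference of 0.13 (SE 0.057) did not pass (adjusted p = 0.145). SFRP1, which binds Wnt proteins outside the cell, was at 0.10 (SE 0.073, adjusted p = 0.363).

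Within the Dishevelled family the paralogues moved apart. DVL3 was at -0.78, -0.45 and -0.66 in SDC1 siRNA cells, against 0.53, 0.69 and 0.45 in control siRNA cells, and fell by 1.19 (SE 0.10, adjusted p = 6.23e-05), to 43.9% of control. DVL2 was at 0.17, 0.26 and 0.14 with SDC1 siRNA, against -0.14, -0.16 and -0.24 with control siRNA, and rose by 0.37 (SE 0.063, adjusted p = 0.00244). Both DVL2 probe sets passed, at 0.37 and 0.29, and neither had overlapping groups. DVL1 was at 0.13 (SE 0.083, adjusted p = 0.320). Within the spike-in batches DVL3 was at -1.15 and -1.23 and passed in both. DVL2 was at 0.36 and 0.34 within them and passed in neither (adjusted p = 0.075 and 0.116).

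Among destruction complex members AXIN2, a scaffold that is a standard readout of beta-catenin signalling, rose by a small amount that few alternatives kept. It was at 0.06, 0.21 and 0.07 in SDC1 siRNA cells, against -0.12, -0.06 and -0.38 in control siRNA cells, a rise of 0.31 log2 units (SE 0.093, adjusted p = 0.0386). Control siRNA replicate 3 was the lowest array, and without it the difference was 0.21 (adjusted p = 0.089). The call was lost without any one array other than control siRNA replicate 2, and with all 4 AXIN2 probe sets averaged (0.11, adjusted p = 0.253). It was also lost with the class from all 6 arrays (0.11, adjusted p = 0.307), when the spike-in batches entered the fit as a block (0.28, adjusted p = 0.0868) and within each of them (0.26 and 0.30). None of its 4 probe sets passed in the fit over probe sets, where they ranged from -0.06 to 0.31. AXIN1, APC and GSK3B were at -0.01, -0.07 and 0.05, with adjusted p of 0.950, 0.506 and 0.662.

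The TCF/LEF factors, which bring beta-catenin to DNA, also differed among themselves. TCF7L2 was at 0.27, 0.20 and 0.11 with SDC1 siRNA, against -0.14, -0.23 and -0.22 with control siRNA, and rose by 0.39 (SE 0.065, adjusted p = 0.00236), or 1.31-fold. Within the spike-in batches it was at 0.37 and 0.33 and passed in neither (adjusted p = 0.0625 and 0.112). Of its 7 probe sets 5 passed, from 0.33 to 0.43, all placed as bright. The middle-class ones, 212759_s_at and 236094_at, were at 0.16 and -0.08 (adjusted p = 0.412 and 0.536). TCF7L1, which often acts as a repressor, was at -0.19, 0.00 and -0.34 after SDC1 siRNA and 0.27, 0.00 and 0.27 after control siRNA. Its groups overlapped, and the fall of 0.36 (SE 0.11, adjusted p = 0.0356) was lost without SDC1 siRNA replicate 1 (-0.35), without SDC1 siRNA replicate 3 (-0.28), without control siRNA replicate 1 or 3 (-0.31 each), and within both spike-in batches (-0.37 and -0.47). In the fit over probe sets its only probe set did not pass. LEF1 was at 0.05 (SE 0.064, adjusted p = 0.650).

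Probe sets of 1 gene could disagree, most of all for LRP6, DVL3 and DKK3. Different probe sets can read different transcript ends or isoforms, and which ones these probe sets read was not analysed here. The comparison of brighter and dimmer probe sets is a description, since these genes were picked for it with their values known. None of these genes has both a bright and a dim probe set. LRP6 and DVL3 have bright and middle ones, and DKK3 has middle and dim ones. For LRP6 the bright probe set was at -1.32, while 205606_at gave -0.02, 0.02 and 0.03 with SDC1 siRNA and -0.10, 0.05 and -0.02 with control siRNA. The remaining one, 34697_at, gave 0.03, -0.11 and 0.09 with SDC1 siRNA and -0.03, 0.15 and -0.15 with control siRNA. On both of these LRP6 probe sets, placed as middle, the groups overlapped and the fold changes were 0.03 and 0.02 (adjusted p = 0.813 and 0.939). The bright one was also placed as middle when all 6 arrays set the class, and the average over LRP6 was then -0.42 (adjusted p = 0.000728).

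For DVL3 the contrast was of the same kind. The bright probe set 201908_at was at -1.19, while 201907_x_at, marked by the manufacturer as open to cross-hybridisation, gave 0.06, -0.08 and 0.11 with SDC1 siRNA and -0.01, 0.01 and -0.02 with control siRNA. Its groups overlapped, at a fold change of 0.04 (adjusted p = 0.782). With all 6 arrays setting the class, both DVL3 probe sets were placed as middle. The cross-hybridising one was still left out there, so the gene value stayed at -1.19. With every probe set averaged, cross-hybridising ones included, DVL3 was at -0.57 (adjusted p = 0.000213). For DKK3 the 6 probe sets ran from -1.14 to 0.09, and 2 passed. The largest fall was on 214247_s_at, at -0.35, -0.65 and -0.66 with SDC1 siRNA and 0.81, 0.61 and 0.35 with control siRNA (adjusted p = 0.000475). The other middle-class one, 207875_at, was at -0.10 (adjusted p = 0.542). Brightness did not sort the DKK3 values, as the dim probe set 202196_s_at also fell, by 0.44 (SE 0.087, adjusted p = 0.00762), without overlap between groups. Another dim one, 221127_s_at, was at -0.21 (adjusted p = 0.0967) with no overlap either, and the dim 221126_at and 230508_at were at -0.07 and 0.09. The DKK3 gene value of -0.62 is thus the mean of -1.14 and -0.10, and with the class from all 6 arrays it was -1.14.

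**Figure D3:**
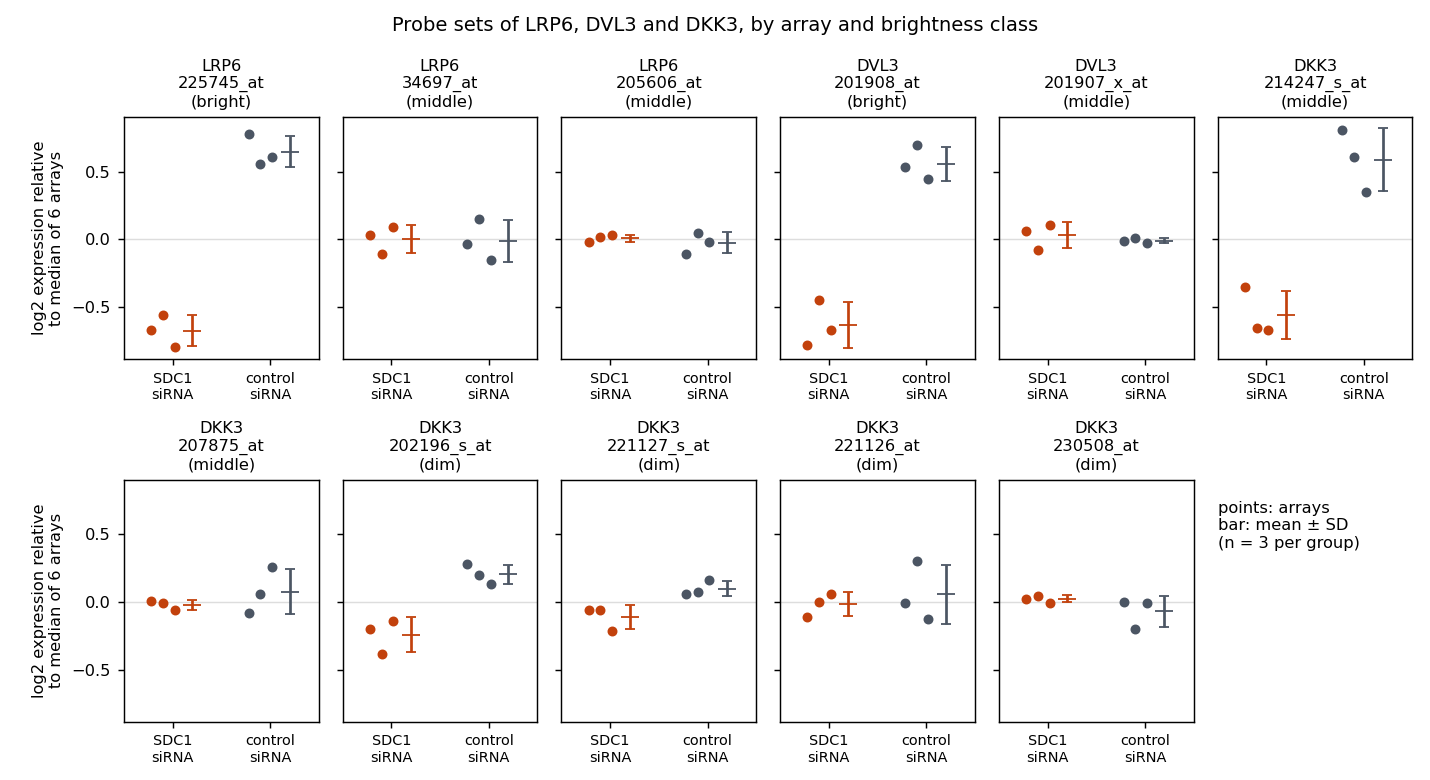
Log2 expression, centred on the 6-array median, (y axis) for each probe set of LRP6, DVL3 and DKK3, with its brightness class in brackets and SDC1 siRNA arrays left of control siRNA arrays. Points are arrays, bars are mean ± SD (n = 3 per group). The groups stand far apart on 225745_at, 201908_at and 214247_s_at and overlap on the remaining LRP6 and DVL3 probe sets.

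Of the 27 members with more than 1 probe set, RYK and DVL2 had all of them pass in 1 direction, 6 had some that passed and some that did not (FZD3, FZD4, LRP6, DKK3, DVL3 and TCF7L2), and 19 had none. No member had probe sets that passed in opposite directions. The distance between the lowest and highest log2 fold change of a gene was 0.27 at the median of these 27, and over 0.5 in 6 genes. It was 1.35 for LRP6, 1.24 for DKK3 and 1.23 for DVL3, followed by 0.69 for FZD3.

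**Figure D4:**
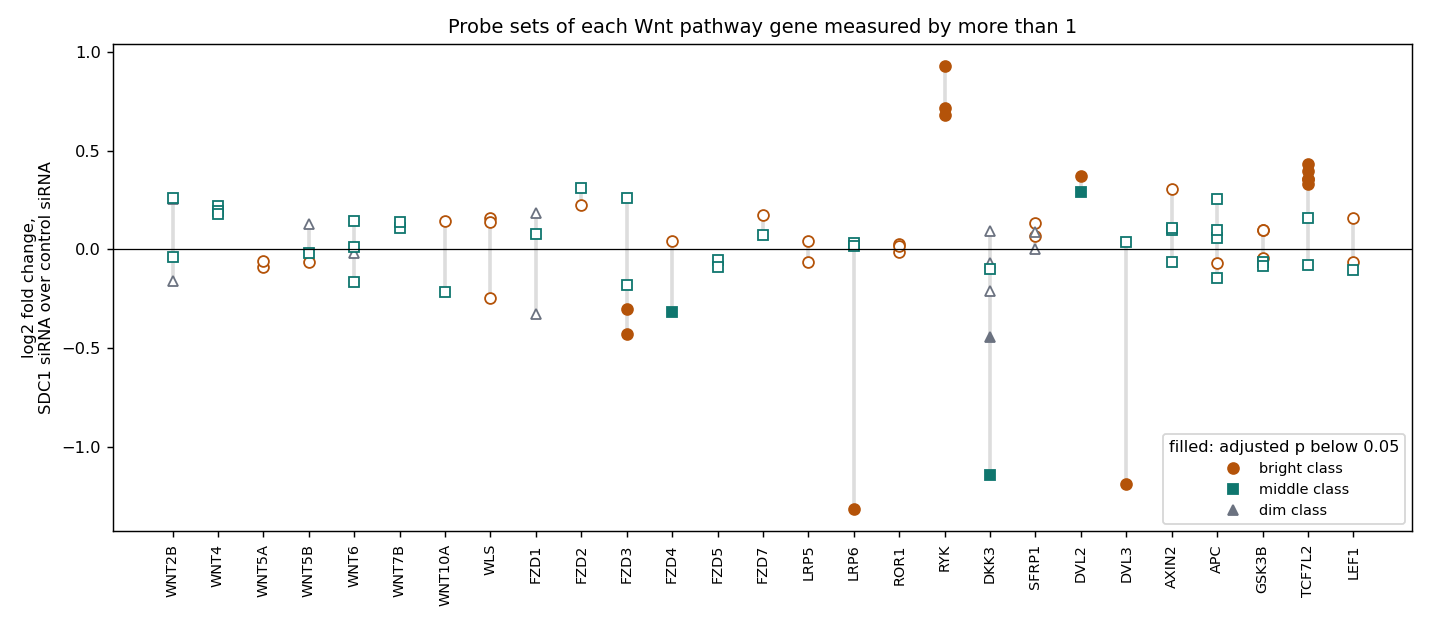
Log2 fold change (y axis, SDC1 siRNA over control siRNA) of every probe set of the 27 Wnt genes that have more than 1, with shape and colour by brightness class and filled symbols for an adjusted p below 0.05. Grey lines join the probe sets of a gene. LRP6, DVL3 and DKK3 span over 1.2, while all RYK probe sets lie above 0.6.

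RefSeq promoter stretches (GRCh38.p14, 250 bases before to 50 after a start) were matched to 30 of the 41 listed genes. They were searched on both strands for the TCF/LEF core, spelled CTTTGA or CTTTGT, matches being counted without overlap. The core was found in 8 of these 30 genes (26.7%), against 30.3% of all genes in the table, and in 1 of the 5 that passed the test. Below are the stretches of RYK, DVL2 and TCF7L2, which rose, and of DVL3, which fell while DVL2 rose, shown so that members that moved alike and paralogues that moved apart can be set side by side. Capitals mark the core.
RYK, chr3:134250810-134251109, minus strand: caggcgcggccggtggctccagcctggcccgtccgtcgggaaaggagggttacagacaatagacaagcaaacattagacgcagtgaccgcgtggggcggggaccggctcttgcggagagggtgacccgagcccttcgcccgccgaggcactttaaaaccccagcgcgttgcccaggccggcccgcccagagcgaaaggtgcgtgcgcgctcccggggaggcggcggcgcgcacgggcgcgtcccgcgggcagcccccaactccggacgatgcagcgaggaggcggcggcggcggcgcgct
DVL2, chr17:7234468-7234767, minus strand: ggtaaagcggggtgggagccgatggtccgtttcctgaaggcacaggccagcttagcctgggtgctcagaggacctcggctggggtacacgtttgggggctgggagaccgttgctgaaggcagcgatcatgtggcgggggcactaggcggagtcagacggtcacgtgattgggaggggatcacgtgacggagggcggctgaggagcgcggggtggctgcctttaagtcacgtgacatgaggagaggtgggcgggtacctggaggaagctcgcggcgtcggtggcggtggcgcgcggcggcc
TCF7L2, chr10:113126383-113126682, plus strand: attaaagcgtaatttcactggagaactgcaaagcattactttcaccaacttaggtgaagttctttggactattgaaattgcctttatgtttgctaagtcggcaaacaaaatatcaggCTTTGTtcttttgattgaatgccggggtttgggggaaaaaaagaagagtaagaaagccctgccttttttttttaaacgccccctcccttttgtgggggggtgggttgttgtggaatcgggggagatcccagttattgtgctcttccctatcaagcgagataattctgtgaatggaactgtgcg
DVL3, chr3:184155127-184155426, plus strand: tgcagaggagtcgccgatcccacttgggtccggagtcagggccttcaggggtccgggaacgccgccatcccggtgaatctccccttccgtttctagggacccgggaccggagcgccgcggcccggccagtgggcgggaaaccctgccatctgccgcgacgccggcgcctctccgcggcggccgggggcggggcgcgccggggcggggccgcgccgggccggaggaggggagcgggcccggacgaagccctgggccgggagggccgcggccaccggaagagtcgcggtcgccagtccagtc
The TCF7L2 stretch is that of 1 of its 3 listed starts, the one that holds a core, whose first letter lies at -133 from the start, and the RYK, DVL2 and DVL3 stretches hold none. The G and C content was 73.0% for RYK, 67.0% for DVL2, 77.7% for DVL3 and 42.7% for this TCF7L2 start, against a median of 58.7% over all promoters. A match is only a run of letters, and no binding was measured.

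Other genes of the pathway were counted in 6 lists with 101 genes, 97 of them measured. In all 14 rose and 18 fell, with a median log2 fold change of 0.04, beside the 28.2% called among all genes. None of 8 other Wnt ligands passed, with values from -0.09 to 0.19. Of 22 other receptors and secreted modulators 1 passed, LGR5, the R-spondin receptor known from stem cells and also listed as a target, at 0.35 (SE 0.087, adjusted p = 0.0159). LGR5 missed the threshold without SDC1 siRNA replicate 1 (0.30, adjusted p = 0.0599) or 2 (0.34, adjusted p = 0.0529).

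In the list for beta-catenin and its destruction complex 3 of 14 measured genes rose and 6 fell, with a median of -0.01. This stands beside 28.2% called among all genes and 41.4% among bright ones, and 10 of the 14 were placed as bright. Of the 5 measured casein kinase 1 genes, a grouping made after their values were seen, 4 fell, while CSNK1G2 was at 0.19 (SE 0.069, adjusted p = 0.0801) with groups that did not overlap. CSNK1A1 encodes the kinase that primes beta-catenin for GSK3, and it was at -0.41, -0.49 and -0.31 with SDC1 siRNA, against 0.38, 0.35 and 0.46 with control siRNA. Its fold change was -0.80 (SE 0.068, adjusted p = 6.81e-05), and 8 of its 13 probe sets fell, the lowest at -1.56. CSNK1E, a kinase of Dishevelled, fell by 0.87 (SE 0.072, adjusted p = 6.07e-05) on 1 of 2 probe sets, the other being at -0.13 (adjusted p = 0.308). CSNK1G1 fell by 0.59 (SE 0.059, adjusted p = 0.00016), with 2 of its 4 probe sets lower. CSNK1D, named after its value was seen, fell by 0.62 (SE 0.068), with 2 of its 3 probe sets lower. BTRC, the F-box protein that hands phosphorylated beta-catenin to the proteasome, rose by 0.53 (SE 0.056, adjusted p = 0.000214) on 3 of 5 probe sets. CTNNB1, the gene of beta-catenin, also named after its value was seen, was at -0.02 (SE 0.093, adjusted p = 0.886).

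Nuclear partners of beta-catenin had 2 of 12 higher and 3 lower, with a median of 0.07. The shares called were 28.2% of all genes and 41.4% of bright ones. BCL9L, a co-activator that links beta-catenin to Pygopus, fell by 0.73 (SE 0.068, adjusted p = 9.77e-05) on both of its probe sets. PYGO1, a Pygopus, rose by 0.61 (SE 0.076, adjusted p = 0.000478), and its probe sets spread from 0.06 to 0.97. NLK, a kinase that acts on TCF/LEF factors, fell by 0.35 (SE 0.063, adjusted p = 0.00353). CTBP2, a co-repressor, rose by 0.24 (SE 0.067, adjusted p = 0.0248). Averaging all 6 CTBP2 probe sets ended its call (0.19, adjusted p = 0.103), as did leaving out SDC1 siRNA replicate 1 or 2 (0.22 each) or control siRNA replicate 2 (0.25) or 3 (0.22).

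The polarity and non-canonical list had 2 of 17 higher and 5 lower, with a median of 0.04. By comparison 28.2% of all genes and 41.4% of bright ones were called. INVS, the gene of inversin, which steers Dishevelled towards polarity signalling, was at -0.55, -0.55 and -0.55 in SDC1 siRNA cells, against 0.67, 0.55 and 0.59 in control siRNA cells. It fell by 1.16 (SE 0.059, adjusted p = 5.14e-06) on its middle-class probe set, while its dim ones were at -0.17 and -0.01 (adjusted p = 0.301 and 0.945). CELSR2, a polarity cadherin, was at 0.49, 0.51 and 0.43 with SDC1 siRNA, against -0.49, -0.55 and -0.55 with control siRNA. It rose by 1.01 (SE 0.058, adjusted p = 8.73e-06) on both of its probe sets, at 1.05 and 0.96. ROCK1, a kinase downstream of RHOA, and DAAM1, a formin that binds Dishevelled, fell by 0.51 (SE 0.060) and 0.49 (SE 0.064). ROCK1 probe sets ran from -0.56 to 0.02, with 2 of 5 lower. Those of DAAM1 ran from -0.80 to 0.17, with 3 of 5 lower.

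Genes often induced by beta-catenin and TCF went both ways, 7 of 25 measured higher and 4 lower, with a median of 0.06. Among all genes 28.2% were called, and among bright ones 41.4%. ID2, an inhibitor of basic helix-loop-helix factors, rose by 0.81 (SE 0.093, adjusted p = 0.000305), and BMP4, a bone morphogenetic protein, by 0.79 (SE 0.059, adjusted p = 3.32e-05). JUN, a subunit of AP-1, rose by 0.67 (SE 0.080, adjusted p = 0.000359) on 1 bright probe set. Its other 3 probe sets, of which 1 is also bright but cross-hybridising, were at 0.14 to 0.25. The cross-hybridising one, at 0.25, also passed in the fit over probe sets (adjusted p = 0.0383). CD44, a hyaluronan receptor, fell by 0.68 (SE 0.081, adjusted p = 0.000389), and 8 of its 13 probe sets fell. Many signals besides Wnt act on each of these target genes.

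**Figure D5:**
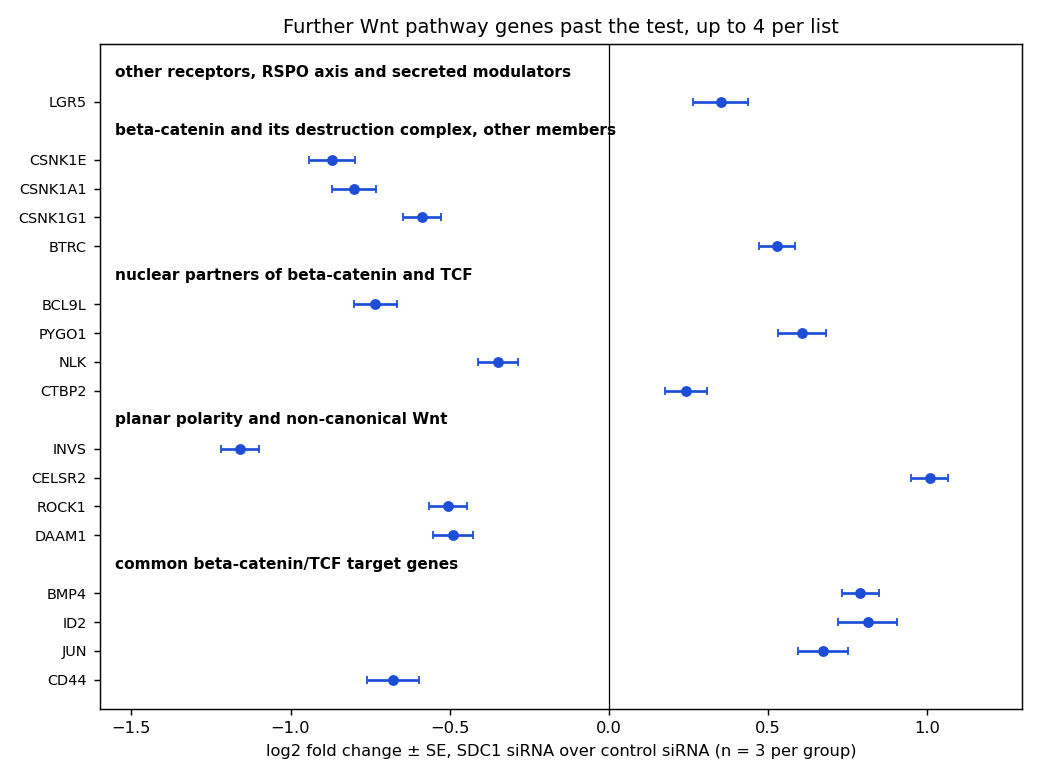
Log2 fold change (x axis, SDC1 siRNA over control siRNA, n = 3 arrays per group) of further Wnt pathway genes, up to 4 per list by lowest p among those that passed. Points are limma estimates and bars are 1 SE. INVS and CELSR2 lie furthest from 0, at -1.16 and 1.01, and the 3 casein kinase 1 genes shown lie below 0.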

How the data were processed

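Biotin-labelled cRNA of 6 samples, 3 per group by their titles, was measured on 6 arrays. The log2 values were deposited by the authors, and RMA is named in the submitters' processing notes with no version. Any other step is not stated. Every probe set had a median within 1e-06 of 0 over the arrays, a centring read from the values, as was log base 2.

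Gene names came from the annotation of the platform, which ties 41097 to 1 gene, 1801 to several and 11777 to none, and symbols were updated through a RefSeq table (41043 found). The 62 manufacturer's controls were left out. Each gene took the average of those probe sets tied to it alone that lay in its brightest class. Cross-hybridising (_x_at) probe sets entered only for genes lacking any other.

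Genes and probe sets were fitted with limma 3.58.1 in R 4.3.3 (lmFit, eBayes, 2-sided, no covariates, Benjamini-Hochberg at 0.05), a script also tested on simulated data. The alternatives were other probe set rules, a filter on dim genes, quantile normalization, array centring, another prior, blocks, spike-in batches and leaving out each array. The number of arrays limits precision: the median SE was 0.075 and the median SD within a group 0.092. The members and lists were chosen with earlier results of these data known. Named were SDC1, all members and up to 4 genes per list by lowest p among those that passed. The series design calls the replicates independent without naming separate cultures, so p-values measure the spread between these samples, which may be technical.

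Same-numbered arrays of the groups correlated at 0.01, 0.08 and 0.10 in their deviations from the group means, so the numbers were not taken as pairs.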

Additional observations from a re-analysis of the deposited data

How the results depend on the processing

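The 11 called members kept their direction in all 198 alternative fits, and 28 of these, in 6 members (FZD3, FZD6, DVL2, AXIN2, TCF7L1 and TCF7L2), missed the threshold. LRP6, DVL3, DKK3, RYK and ZNRF3 passed in every alternative, although with every probe set averaged, cross-hybridising ones included, LRP6 was at -0.42, DVL3 at -0.57 and DKK3 at -0.31. Of 467 fits of the 26 members not called, 10 passed (FZD2, RNF43 and WNT4) and 47, in 17 members, turned sign without passing. The class from all 6 arrays and the average over every probe set were alternatives chosen after seeing the data. The spike-in batch as a block left 4 members higher, since the AXIN2 call was lost.

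Counts fell within the spike-in batches, which hold 3 arrays each, 1 group by a single array that is assumed to vary like the others. Higher and lower genes numbered 1167 and 1511 in the first batch and 836 and 1054 in the second. Higher and lower probe sets numbered 1435 and 1790, then 888 and 960. Members higher were 2 in each batch and members lower 3 in the second, and member probe sets were 4 higher and 3 lower, then 2 and 3. Leaving out 1 array gave 5 to 7 member probe sets lower, 5 without SDC1 siRNA replicate 1. Calls in the lists were, in the first and second batch, 0 and 0 for other receptors, 3 and 2 for nuclear partners, 4 and 4 for polarity, and 6 and 4 for targets. Without 1 array they were 0 to 1 for other ligands, 0 to 3 for other receptors and 3 to 5 for nuclear partners.

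With the replicate block 3 other receptors passed, FZD2 did too (0.22, adjusted p = 0.035) and the TCF7L1 call was lost (-0.36, adjusted p = 0.0781). No other member's call changed with it.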
